A study of Mus musculus with 6 samples.

Results

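The 10 genes described here are grouped as ERK pathway feedback genes. Among them, the ETS transcription factor genes Etv4 and Etv5 encode activators. The others are the phosphatase genes Dusp4, Dusp5 and Dusp6, the Sprouty genes Spry1, Spry2 and Spry4, and the Spred genes Spred1 and Spred2. All 10 were taken by symbol from a table of FPKM by transcript and were found among its 26094 genes. Before this, its gene identifiers had been matched to mouse symbols and the rows of each gene summed. FPKM is the number of sequenced fragments per kilobase of transcript, scaled to the size of the library. The study sequenced RNA from 4T1, a mouse mammary carcinoma line, in stable lines that overexpress mouse Limch1 (Limch1_OE, 3 libraries) or carry the control (Vector, 3 libraries). Limch1 was carried by lentivirus in PLVX-ires-neo, packaged in the human line HEK293T; antibiotic selection began 48 h after infection, and the cells grew with 10% fetal bovine serum. Limch1 encodes a LIM- and calponin-homology-domain protein of the actomyosin cytoskeleton. The labels do not say whether a line was 1 clone or a pool, nor whether replicates were grown apart. A p-value below therefore refers to variation among the 6 sequenced libraries, and this may be technical variation only.

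Growth factors bind receptor tyrosine kinases, which load RAS with GTP and start the kinase relay from RAF to MEK to ERK. Active ERK enters the nucleus and raises transcription of genes that include its own inhibitors, so mRNA of this group is widely read as a record of recent ERK activity. DUSP proteins of the group remove phosphate from ERK, Sprouty and SPRED proteins act upstream at the receptor and RAS, and ETV4 and ETV5 are PEA3-family activators. Several of these genes are held down by the repressor Capicua, which ERK signalling inactivates. In breast carcinoma the pathway drives proliferation and invasion. Phosphorylated ERK was not analysed here, so the values below are mRNA levels.

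Of the 10 genes 9 could be tested, and 5 were lower in Limch1_OE: Dusp6, Etv5, Etv4, Dusp5 and Dusp4. Of all tested genes 14.4% were lower by the same test. Dusp6 was 2.01-fold lower, Etv5 1.72-fold, Dusp5 1.63-fold, Etv4 1.59-fold and Dusp4 1.16-fold, as ratios of mean FPKM (n = 3 libraries each). None of the Sprouty or Spred genes passed the test, and Spry4 was too low to be tested. Among the members, both ETS factor genes and all 3 phosphatase genes thus fell. Dusp4 fell by the same 1.16-fold ratio as Spry2, which did not pass the test. Of the other Dusp genes listed below that passed, Dusp7 fell (log2 fold change -0.35) and Dusp9 and Dusp10 rose (0.20 and 0.38). Whether the ETS factor and phosphatase genes differ from the Sprouty and Spred genes in their response was not tested.

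Promoter sequence is shown for the members with the largest falls that RefSeq's GRCm38.p6 table covers, and for Spry2, so that the letters near the start site can be seen beside the mRNA changes. Windows of 300 bases, from 250 before to 50 after the transcription start, were used here for 7 of the 10 members. Each window was searched on both strands for the ETS core CCGGAA, the Capicua octamers TGAATGAA, TGAATGGA, TCAATGAA and TCAATGGA, the AP-1 word TGANTCA and the cAMP-response word TGACGTCA. Letters in capitals mark matches, and sequences run 5′ to 3′ on the strand of the gene.
Dusp6, chr10:99262981-99263280, plus strand: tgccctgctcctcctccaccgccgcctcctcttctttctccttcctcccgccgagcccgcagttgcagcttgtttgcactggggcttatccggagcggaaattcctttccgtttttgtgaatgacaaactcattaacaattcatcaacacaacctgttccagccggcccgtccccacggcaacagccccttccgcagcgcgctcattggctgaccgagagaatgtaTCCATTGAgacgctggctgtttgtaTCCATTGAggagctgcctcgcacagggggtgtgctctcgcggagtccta
Dusp5, chr19:53528895-53529194, plus strand: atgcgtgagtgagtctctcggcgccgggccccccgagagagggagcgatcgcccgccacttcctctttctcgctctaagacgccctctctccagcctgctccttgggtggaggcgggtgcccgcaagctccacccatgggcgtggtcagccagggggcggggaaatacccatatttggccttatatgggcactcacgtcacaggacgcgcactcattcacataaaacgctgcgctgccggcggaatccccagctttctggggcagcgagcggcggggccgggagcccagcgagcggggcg
Etv5, chr16:22439521-22439820, minus strand: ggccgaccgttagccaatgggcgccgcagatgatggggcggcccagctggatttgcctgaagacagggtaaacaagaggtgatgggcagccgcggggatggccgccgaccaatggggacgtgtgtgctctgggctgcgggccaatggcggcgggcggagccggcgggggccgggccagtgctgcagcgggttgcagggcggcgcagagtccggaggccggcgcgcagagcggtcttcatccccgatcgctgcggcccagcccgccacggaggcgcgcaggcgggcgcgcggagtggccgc
Spry2, chr14:105896770-105897069, minus strand: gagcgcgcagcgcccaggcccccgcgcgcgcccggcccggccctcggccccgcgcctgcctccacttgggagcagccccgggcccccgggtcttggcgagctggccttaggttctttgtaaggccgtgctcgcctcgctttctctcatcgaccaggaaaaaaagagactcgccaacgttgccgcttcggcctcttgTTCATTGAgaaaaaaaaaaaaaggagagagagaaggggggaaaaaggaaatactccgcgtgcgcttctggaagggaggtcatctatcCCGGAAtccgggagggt

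Dusp6 carried the octamer TCCATTGA, which reads TCAATGGA on the other strand, at 2 places, with first bases at -24 and 2 counted from the start site (the first transcribed base is 1). Spry2 carried the octamer TTCATTGA with its first base at -54 and the ETS core CCGGAA at 34. The matches did not overlap. No word was found in the windows of Dusp5, Spry1, Spred1 or Spred2, nor in either of the 2 windows of Etv5, of which the upstream one is shown; this says only that these letters are not in these windows. Over all 32851 windows of this length, 3.84% held at least 1 Capicua octamer, 0.183% held 2 or more, 14.9% held CCGGAA, 7.81% held TGANTCA and 1.79% held TGACGTCA. Of the members with an octamer in the window, Dusp6 fell and Spry2 did not pass the test. Etv5 and Dusp5, with no match in these windows, fell. Whether these words bear on the mRNA changes was not tested. No window of Dusp4, Etv4 or Spry4 was searched. Windows on chromosome 18, where Spry4 lies, were left out of the search of members. A match is a word in the reference sequence, and binding was not measured.

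Library-wide values were as follows. Limch1 (ENSMUSG00000037736, mm10 chromosome 5, 66745827 to 67057158) was at 23.31 to 25.69 FPKM in Limch1_OE and 0.1 to 0.25 FPKM in Vector. Sums over all genes lay between 414837 and 425064 FPKM. Vector and Limch1_OE lay apart on the first principal component (74.9% of variance), and Limch1_OE replicate 1 stood apart from its group on the second (14.37 against -4.41 and -10.61). RNAs encoded in mitochondria took 6.31 to 8.73% of FPKM in Limch1_OE and 4.76 to 5.57% in Vector, with replicate 1 of Limch1_OE highest. The calls of the 5 lower members were the same after rescaling to the remaining RNAs and without that library. All 6 epithelial markers measured were above 1 FPKM, with sums of 1189.18 to 1315.63 FPKM in Limch1_OE and 1285.79 to 1325.76 in Vector. Within this sum, most of which is Krt18 and Krt8, 3 of the 6 fell with the lower members: the tight-junction gene Cldn7 from 24.3 ± 0.930 to 7.14 ± 1.15 FPKM (SD, n = 3 each; log2 fold change -1.65, limma adjusted p = 4.77e-06), Epcam by 0.44 and Cdh1 by 0.18. The keratin genes Krt8, Krt14 and Krt18 did not pass (-0.09, -0.11 and 0.14). The part of these marker changes in the results was not tested. Of leukocyte markers 3 of 3, of endothelial markers 5 of 5 and of fibroblast markers 4 of 5 were below 1 FPKM in both groups. The leukocyte sum was at most 0.4 FPKM in any library, the leukocyte marker Ptprc was listed at 0 in each Vector library, and the exception among fibroblast markers was Pdgfra at 1.45 ± 0.151 FPKM in Vector and 1.88 ± 0.121 in Limch1_OE (SD, n = 3 each). The reference genes Actb and Tbp stood at log2 fold changes of -0.18 (limma adjusted p = 0.0754) and -0.20 (adjusted p = 0.220). Gapdh, with a listed sum of 9.57, 9.39 and 19.92 FPKM in Vector and 8.35 to 9.04 FPKM in Limch1_OE, stood at -0.46 (limma adjusted p = 0.160). This value rests largely on Vector replicate 3, so Gapdh serves poorly as a reference here.

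A gene entered the test if 3 or more libraries reached 1 FPKM. This left 11842 genes, 9 of the 10 members among them, for limma on log2(FPKM + 1). Of all tested genes 14.4% were lower and 20.2% higher at a Benjamini-Hochberg adjusted p below 0.05, against 5 lower and 0 higher of the 9 members. Calls in either direction made up 34.6% of tested genes. With scaling by the trimmed mean of M values the counts over all genes were 2058 lower and 1886 higher, in place of 1706 and 2388, and the members stayed at 5 and 0. The groups did not overlap, with Limch1_OE below Vector, in 5 members and in 20.5% of all tested genes. They did not overlap in the other direction in 1 member, Spry1, and in 28.6% of tested genes, which gave 49.1% of genes without overlap in either direction. The median log2 fold change was -0.21 over the tested members and 0.04 over all tested genes. In bulk RNA, fewer cells that express a gene and less RNA per cell cannot be told apart.

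**Figure D1:**
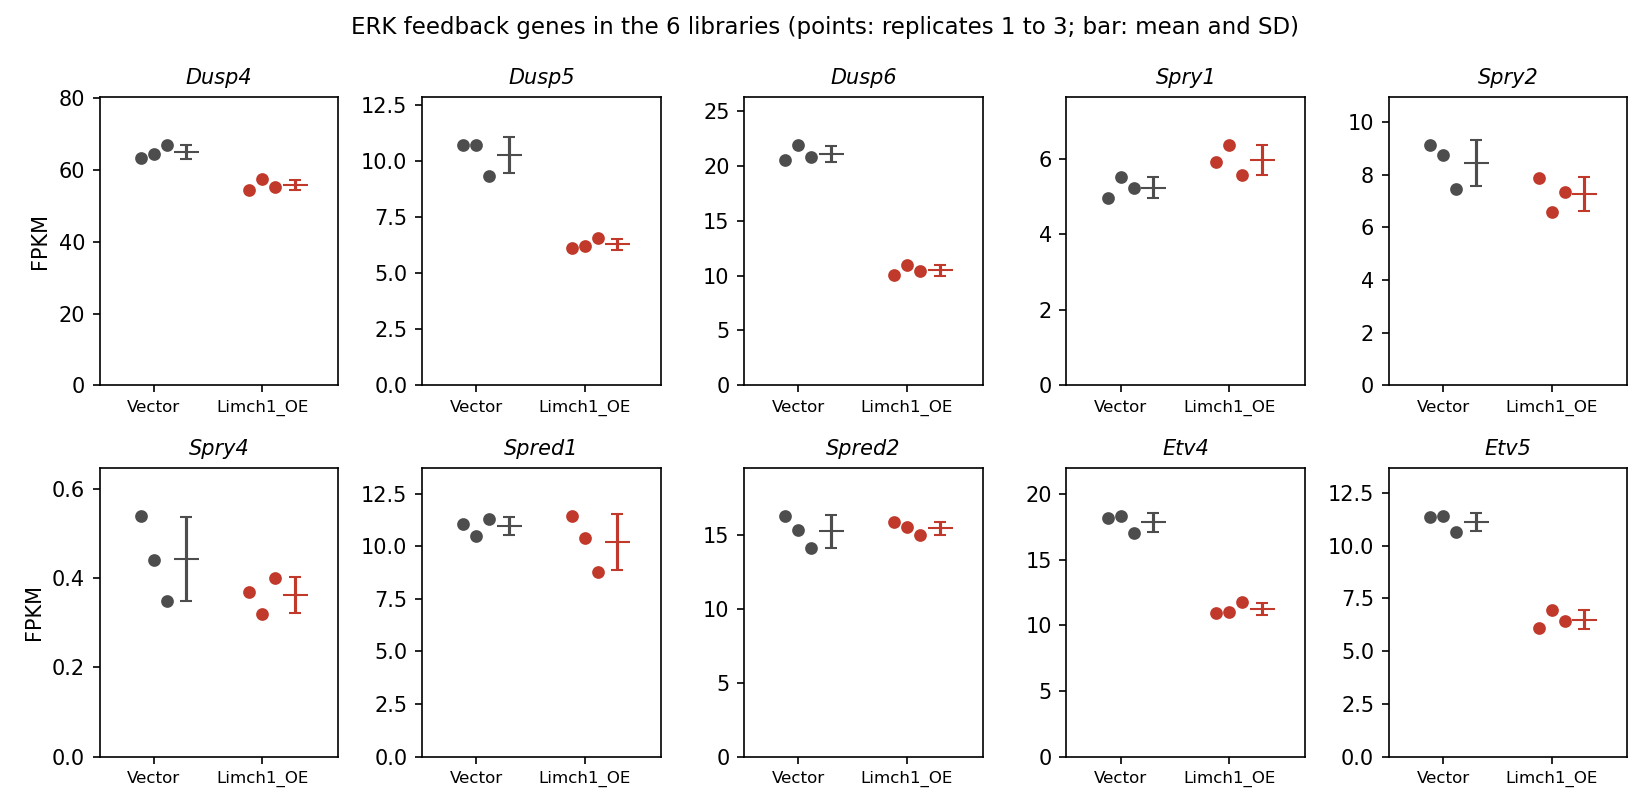
FPKM (vertical axes, each from 0) of the 10 genes in Vector and Limch1_OE libraries; points are libraries and the bar beside them is the mean with its SD (n = 3). Dusp6 sits at 10.03 to 10.98 FPKM in Limch1_OE against 20.53 to 21.94 in Vector, while the Spred2 libraries overlap.

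Dusp6 (ENSMUSG00000019960, mm10 chromosome 10, 99263231 to 99267489, plus strand) encodes the cytoplasmic phosphatase that acts on ERK with high selectivity. It was at 20.53, 21.94 and 20.81 FPKM in Vector replicates 1 to 3 and at 10.03, 10.98 and 10.43 FPKM in Limch1_OE replicates 1 to 3. Every Limch1_OE library was thus below every Vector library, and the spread within each group was small beside the gap. The means were 21.1 ± 0.746 and 10.5 ± 0.477 FPKM (SD, n = 3 each), 50.3% lower in Limch1_OE. The log2 fold change was -0.94 (SE 0.06, 95% interval -1.08 to -0.81, limma adjusted p = 5.22e-06). It was the 230th lowest of the 11842 fold changes. The principal transcript Dusp6-201 carried 99.3% of the listed FPKM in both groups, so that the fall of the gene was the fall of this transcript.

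Dusp5 (ENSMUSG00000034765, chromosome 19, 53529109 to 53542431, plus strand, 1 annotated transcript) encodes the nuclear phosphatase for ERK. Its Vector libraries were at 10.73, 10.7 and 9.34 FPKM and its Limch1_OE libraries at 6.11, 6.2 and 6.57 FPKM. The groups did not overlap, although Vector replicate 3 was nearer to Limch1_OE than its partners. The gene fell by 0.62 on the log2 scale (SE 0.07, 95% interval -0.79 to -0.46, limma adjusted p = 3.78e-04).

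Dusp4 (ENSMUSG00000031530, chromosome 8, 34807297 to 34819894, plus strand, 1 annotated transcript) encodes a nuclear phosphatase that also accepts the stress kinases JNK and p38. It was the most abundant member, at 63.26, 64.44 and 67.09 FPKM in Vector and 54.54, 57.45 and 55.41 FPKM in Limch1_OE. The libraries again did not overlap, but the gap was narrow. The log2 fold change was -0.21 (SE 0.05, 95% interval -0.32 to -0.11, limma adjusted p = 0.00762), the 1722nd lowest. It was close to the values of the reference genes Actb (-0.18) and Tbp (-0.20), which did not pass.

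Etv5 (ENSMUSG00000013089, chromosome 16, 22381309 to 22439719, minus strand) and Etv4 encode close relatives that bind ETS sites and activate genes of migration and invasion. Etv5 was at 11.36, 11.42 and 10.66 FPKM in Vector and at 6.1, 6.97 and 6.41 FPKM in Limch1_OE. No library of one group reached the other, and the change was -0.70 (SE 0.07, 95% interval -0.85 to -0.54, limma adjusted p = 1.34e-04). Transcript Etv5-201 held more than 99% of the sum.

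Etv4 (ENSMUSG00000017724, chromosome 11, 101769742 to 101785371, minus strand) was at 18.21, 18.34 and 17.04 FPKM in Vector and at 10.92, 11 and 11.77 FPKM in Limch1_OE. These groups were also apart, and the gene fell by 0.63 on the log2 scale (SE 0.06, 95% interval -0.76 to -0.49, limma adjusted p = 1.00e-04). Its 12 annotated transcripts were all listed, and the sum was more even between libraries than its parts. The main transcript Etv4-202 was at 7.65 to 9.6 FPKM in Vector and 4.84 to 5.5 FPKM in Limch1_OE. The principal transcript Etv4-212 was at 0.72, 2.24 and 4.5 FPKM in Vector and at 0.37, 0.13 and 0.3 FPKM in Limch1_OE, which is a wide spread within Vector. Etv4-201 overlapped between groups, at 1.94 to 4.89 and 2.33 to 4.16 FPKM.

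**Figure D2:**
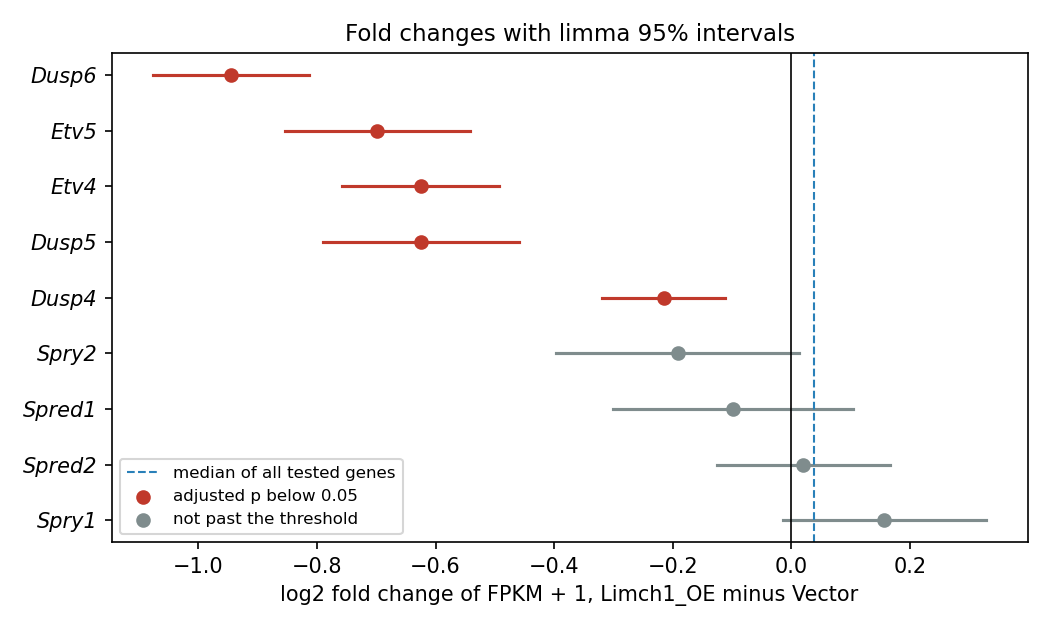
Log2 fold change of FPKM + 1 (horizontal axis, Limch1_OE minus Vector) of the 9 tested members, with limma 95% intervals; the dashed line is the median of all tested genes. Dusp6, Etv5, Etv4, Dusp5 and Dusp4 lie below 0 with intervals that do not reach it, and the intervals of Spry2, Spred1, Spred2 and Spry1 include 0.

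The Sprouty proteins bind GRB2 and other adaptors and damp signalling from receptor tyrosine kinases. Spry2 (ENSMUSG00000022114, chromosome 14, 105891947 to 105896819, minus strand) was at 9.14, 8.75 and 7.46 FPKM in Vector and 7.86, 6.59 and 7.35 FPKM in Limch1_OE. Replicate 1 of Limch1_OE exceeded replicate 3 of Vector, so the groups overlapped. The log2 fold change was -0.19 with a 95% interval from -0.40 to 0.01 (limma adjusted p = 0.133).

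Spry1 (ENSMUSG00000037211, chromosome 3, 37639947 to 37644598, plus strand) was at 4.97, 5.53 and 5.23 FPKM in Vector and at 5.93, 6.38 and 5.58 FPKM in Limch1_OE. It was the only member with a Limch1_OE mean above Vector and no overlap, although the nearest libraries, at 5.53 and 5.58 FPKM, were close. The log2 fold change of 0.16 did not pass (95% interval -0.01 to 0.33, limma adjusted p = 0.140). All 3 annotated transcripts are principal ones, and their shares swung between libraries of 1 group. Spry1-203 was at 0.63, 5.53 and 5.23 FPKM in Vector and at 0.05, 0 and 4.06 FPKM in Limch1_OE, and Spry1-201 was listed at 0 in 2 Vector libraries and in 1 Limch1_OE library. Spry1-203 had the highest mean over the 6 libraries and in Vector (3.80 FPKM), but the lowest in Limch1_OE (1.37 FPKM). With it in the place of the gene, the value was -1.21 (SE 0.83, limma adjusted p = 0.365), so the direction of Spry1 depended on how transcripts were summarised.

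The SPRED proteins recruit neurofibromin to the membrane, where it turns RAS off. Spred1 (ENSMUSG00000027351, chromosome 2, 117121374 to 117182279, plus strand) was at 11.05, 10.47 and 11.3 FPKM in Vector and 11.44, 10.37 and 8.79 FPKM in Limch1_OE. Limch1_OE replicate 1 was the highest of the 6 libraries and replicate 3 the lowest, and the log2 fold change was -0.10 (95% interval -0.30 to 0.10, limma adjusted p = 0.423). Without replicate 1 of Limch1_OE the value was -0.18 and without its replicate 3 it was -0.0051, and neither passed.

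Spred2 (ENSMUSG00000045671, chromosome 11, 19924375 to 20024026, plus strand) was at 16.26, 15.33 and 14.06 FPKM in Vector and 15.84, 15.49 and 14.95 FPKM in Limch1_OE. All Limch1_OE values lay inside the Vector range (log2 fold change 0.02, 95% interval -0.13 to 0.17, limma adjusted p = 0.831). Behind this even sum, the 2 listed transcripts differed in opposite directions. Spred2-202 was at 10.62, 11.35 and 9.97 FPKM in Vector and 13.12, 11.58 and 12.4 FPKM in Limch1_OE, while Spred2-201 was at 5.64, 3.98 and 4.09 FPKM in Vector and 2.72, 3.91 and 2.55 FPKM in Limch1_OE. Neither transcript overlapped between groups, but replicate 2 of both groups lay close for both. Their split was not tested, and with Spred2-202 alone the log2 fold change was 0.20 (limma adjusted p = 0.126).

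**Figure D3:**
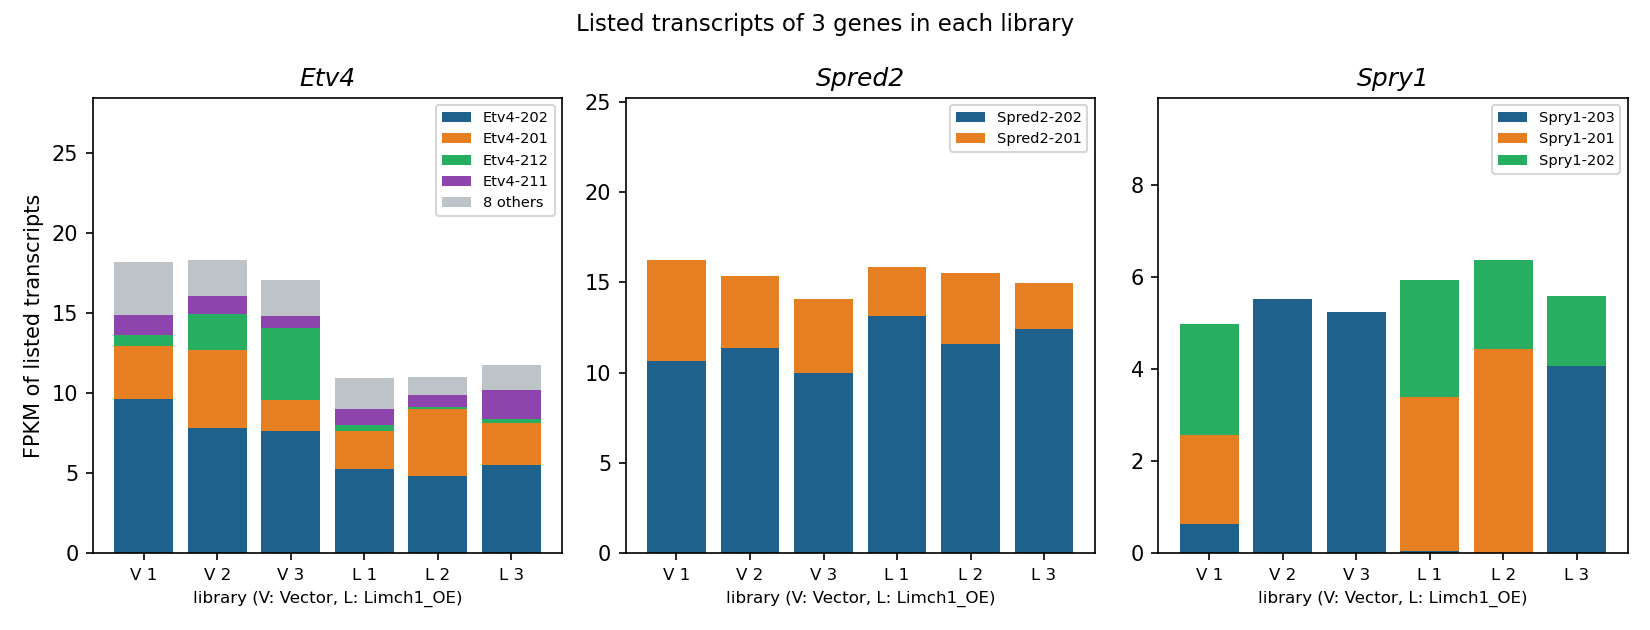
Stacked bars of FPKM (vertical axis, from 0) of the listed transcripts of Etv4, Spred2 and Spry1 in each Vector (V) and Limch1_OE (L) library; for Etv4 the 4 most abundant are coloured and the others pooled in grey. The height of the Spry1 bars stays between 4.97 and 6.38 FPKM while its transcripts alternate.

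Spry4 (ENSMUSG00000024427, chromosome 18, 38586247 to 38601415, minus strand, 1 annotated transcript) was the lowest member. It was at 0.54, 0.44 and 0.35 FPKM in Vector and 0.37, 0.32 and 0.4 FPKM in Limch1_OE, below the filter in every library. The groups overlapped (exact permutation p = 0.3). In the fit without a filter its log2 fold change was -0.08 (limma adjusted p = 0.522).

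The order of levels, which FPKM allows between genes because it is per length, differed between groups. In Vector it ran from Dusp4 (64.9 FPKM) through Dusp6 (21.1), Etv4 (17.9) and Spred2 (15.2) to Etv5 (11.1), Spred1 (10.9), Dusp5 (10.3), Spry2 (8.45), Spry1 (5.24) and Spry4 (0.443). The Vector libraries of Etv5, Spred1 and Dusp5 overlapped one another, as did those of no other neighbours. In Limch1_OE the order was Dusp4 (55.8 FPKM), Spred2 (15.4), Etv4 (11.2), Dusp6 (10.5), Spred1 (10.2), Spry2 (7.27), Etv5 (6.49), Dusp5 (6.29), Spry1 (5.96) and Spry4 (0.363). Libraries of Etv4, Dusp6 and Spred1 overlapped there, and so did those of Spry2, Etv5, Dusp5 and Spry1 with their neighbours. Dusp6 thus stood above Etv4 and Spred2 in each Vector library and below both in each Limch1_OE library, by little for Etv4 in replicate 2 (10.98 against 11 FPKM).

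Whether relatives changed by different amounts was asked in 8 pairs, as the difference in log2(FPKM + 1) between the 2 genes within each library. The Dusp4 excess over Dusp6 was 1.58 ± 0.0651 in Vector and 2.31 ± 0.0230 in Limch1_OE (SD, n = 3 each), and the groups did not overlap. The excess over Dusp5 was 2.55 ± 0.145 and 2.96 ± 0.0619, also without overlap. Dusp5 minus Dusp6 was -0.97 ± 0.10 in Vector and -0.65 ± 0.0723 in Limch1_OE, again without overlap. Etv4 minus Etv5 was 0.63 ± 0.00477 and 0.71 ± 0.103, with overlap, a difference in change of 0.07. Spry1 minus Spry2 was -0.59 ± 0.162 in Vector and -0.25 ± 0.178 in Limch1_OE, and Spry1 minus Spry4 was 2.11 ± 0.138 and 2.35 ± 0.126, both without overlap. Spry4 was below the filter, so the added 1 weighs heavily in this last difference. As plain ratios of Spry1 to Spry4 the groups overlapped (5.23 to 0.35 FPKM in Vector replicate 3, 5.58 to 0.4 FPKM in Limch1_OE replicate 3). Spry2 against Spry4 and Spred1 against Spred2 overlapped. The 5 pairs without overlap reached the smallest exact two-sided permutation p that 3 libraries against 3 allow, 0.1, or 0.16 after Benjamini-Hochberg adjustment over the 8 pairs, so that none passed 0.05.

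By the Euclidean distance between mean-centred log2(FPKM + 1) values over the 6 libraries, Rnf114 (distance 0.10), Bdkrb2 (0.10), Pml (0.10), Nmi (0.13) and Arhgap8 (0.14) lay nearest to Dusp6 among 8807 other genes averaging at least 5 FPKM. None of these nearest genes is a member or on the pathway lists described below. Bdkrb2, the bradykinin receptor gene, was at 23.02 to 24.61 FPKM in Vector and 11.72 to 13.21 FPKM in Limch1_OE. Among members, Etv5 was nearest at place 52, followed by Etv4 at 89 and Dusp5 at 94. Dusp4 came at place 1067 and Spry1 at 6205. The distance is small for any gene that fell by a like amount, and all 6 points are libraries of the same 2 groups.

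Other genes of the pathway were taken from 5 lists, of receptors, ligands, the RAS and kinase cascade, other inhibitors, and other transcriptional outputs of ERK. Of their 119 genes 93 were tested, and 28 were lower and 14 higher. As shares, 30.1% were lower and 15.1% higher, against 14.4% and 20.2% of all tested genes. The members and these lists were chosen with earlier results of these data known, so such shares are a description and not a test. The lists differed, as the plot of fold changes by role shows.

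**Figure D4:**
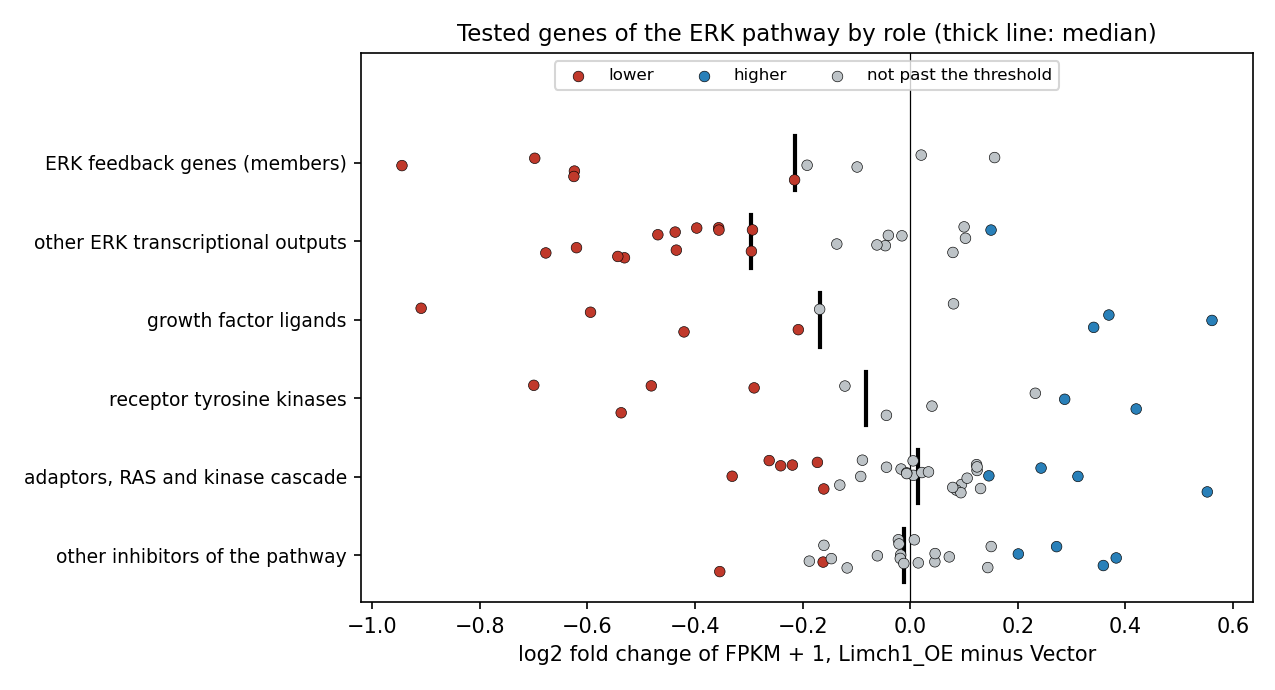
Log2 fold change of FPKM + 1 (horizontal axis, Limch1_OE minus Vector) of each tested gene of the feedback group and of 5 other lists of the ERK pathway; points are genes, coloured by call, and the thick line is the median of a list. Other ERK outputs have 12 of 21 genes lower (median -0.30), whereas the cascade has 6 of 30 lower and 4 higher (median 0.01).

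Other transcriptional outputs of ERK were lower in 12 of 21 tested genes and higher in 1, with a median log2 fold change of -0.30. The cytokine gene Lif was at 32.27, 33.1 and 32.57 FPKM in Vector and 20.43, 19.22 and 20.49 FPKM in Limch1_OE, and it fell by 0.68 (SE 0.05, limma adjusted p = 1.76e-05). Phlda1, a pleckstrin-homology gene used in ERK activity signatures, went from 41.7 ± 3.31 to 26.7 ± 0.542 FPKM (SD, n = 3 each) and fell by 0.62. The highest change was that of Ets2, at 0.15 (limma adjusted p = 0.0225). It was the only output called higher, and none was without Vector replicate 1 (Ets2 adjusted p = 0.0801), 2 (0.0513) or 3 (0.0693) or Limch1_OE replicate 2 (0.0851), with the trimmed mean of M values (0.0656) or with no intensity trend (0.0557). With quantile normalization 2 outputs were higher. The immediate-early gene Fos was below the filter, at 0.91, 1.33 and 1.42 FPKM in Vector and 0.64, 0.79 and 0.41 FPKM in Limch1_OE. Il11, also below it, was at 0.2 to 0.3 FPKM in Vector and 0.32 to 0.39 FPKM in Limch1_OE. Among the tested outputs Junb fell by 0.54 and Ier2 by 0.30. Egr1 (-0.14, limma adjusted p = 0.364), Fosb (-0.02, 0.930) and Myc (-0.05, 0.489) did not pass. These genes were named after their values were seen.

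Growth factor ligands went in both directions. Of 9 tested ligands, 4 fell and 3 rose, and the 4 that fell all bind receptors of the EGF receptor family. Betacellulin (Btc) was at 4.22, 3.52 and 4.1 FPKM in Vector and 1.92, 1.54 and 1.45 FPKM in Limch1_OE, a log2 fold change of -0.91 (SE 0.10, limma adjusted p = 2.98e-04). Amphiregulin (Areg) went from 11.9 ± 0.111 to 7.56 ± 0.907 FPKM (SD, n = 3 each) and fell by 0.59 (limma adjusted p = 9.07e-04). Tgfa and Hbegf, singled out after their values were seen because they complete the 4, fell by 0.42 and 0.21. The neuregulin gene Nrg1, whose product binds the same receptor family, rose by 0.37, and the angiogenic factor gene Vegfa rose by 0.56, from 15.2 ± 1.77 to 22.9 ± 1.65 FPKM. When each gene was read from its most abundant transcript, 1 ligand rose, and Nrg1 did not pass (limma adjusted p = 0.0685), nor did it with protein-coding transcripts only (0.0649).

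Of 10 tested receptor tyrosine kinase genes 4 fell and 2 rose. Fgfr2, a fibroblast growth factor receptor gene, was at 26.59, 27.1 and 27.17 FPKM in Vector and at 17.84, 19.19 and 12.4 FPKM in Limch1_OE (log2 fold change -0.70, limma adjusted p = 0.00436), with Limch1_OE replicate 3 well below its partners. The ephrin receptor gene Epha2 was at 119 ± 3.87 FPKM in Vector and 81.8 ± 4.33 FPKM in Limch1_OE (SD, n = 3 each), and it fell by 0.54 (limma adjusted p = 1.29e-04). The collagen receptor gene Ddr1 and the insulin-like growth factor receptor gene Igf1r rose by 0.42 and 0.29. Genes of the EGF receptor family, named after their values were seen, went different ways. Erbb3 fell by 0.48 (limma adjusted p = 0.00117), and Erbb2 did not pass (-0.12, adjusted p = 0.258). Egfr was below the filter, at 0.23 to 0.38 FPKM in Vector and 0.56 to 0.68 FPKM in Limch1_OE. The call of Fgfr2 ended with the most abundant transcript (-1.12, adjusted p = 0.134) and with protein-coding transcripts only (-1.12, adjusted p = 0.0715), and that of Ddr1 with the most abundant transcript (0.17, adjusted p = 0.708), where 1 receptor gene was higher.

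In the adaptors, RAS proteins and kinases 20 of 30 tested genes did not pass, 6 were lower and 4 higher. The docking protein genes Gab2 and Gab1 fell by 0.33 and 0.26, and the kinase genes Mknk1 and Rps6ka2, whose products act downstream of ERK, rose by 0.55 and 0.31. Mknk1 was at 10.05, 10.2 and 9.37 FPKM in Vector and 14.72, 16.16 and 14 FPKM in Limch1_OE, without overlap. The lower count was 3 without Vector replicate 1, Vector replicate 3 or Limch1_OE replicate 2, and it was 2 with the most abundant transcript. The higher count was 2 without Vector replicate 2 and with no filter on low values, and Rps6ka2 lost its call in both (adjusted p = 0.0516 and 0.0665). Gab1 lost its call without any 1 library other than Vector replicate 2 (adjusted p of 0.0726 to 0.130), with the replicate block (0.0586), with no filter (0.110) and with the most abundant transcript (0.299).

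Of 23 other tested inhibitors of the pathway 2 fell and 4 rose, and 17 did not pass. Dusp7, a cytoplasmic ERK phosphatase gene like Dusp6, went from 41.0 ± 3.40 to 31.8 ± 0.569 FPKM (SD, n = 3 each) and fell by 0.35 (limma adjusted p = 0.00353). Lrig1, which targets EGF family receptors for degradation, fell by 0.16. Dusp10, a phosphatase gene for JNK and p38 rather than ERK, rose by 0.38, and Rasa1, a RAS GTPase-activating protein gene, rose by 0.36. The others called higher, named after their values were seen, were Rasa3, by 0.27, and Dusp9. Dusp9 went from 15.2 ± 0.953 to 17.6 ± 0.960 FPKM and rose by 0.20 (limma adjusted p = 0.0426). Dusp genes of this list thus went in both directions. The lower count was 1 without Vector replicate 1, Vector replicate 2 or Limch1_OE replicate 2 and 4 without Limch1_OE replicate 3, and scaling by the trimmed mean of M values gave 5. The higher count was 2 without Vector replicate 3, where Rasa1 had an adjusted p of 0.0529, and 2 with no filter on low values, where it had 0.0704. Read from the most abundant transcript, 1 inhibitor was lower and 1 higher, and Dusp10 (adjusted p = 0.0561), Rasa1 (0.0708) and Lrig1 (0.522) did not pass. Lrig1 also lost its call with protein-coding transcripts only (0.153) and without Vector replicate 1 (0.0914), Vector replicate 2 (0.0760) or Limch1_OE replicate 2 (0.0525).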

How the data were processed

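RNA sequencing libraries (3 Vector, 3 Limch1_OE) were compared. The authors deposited 1 table of FPKM for 77865 transcripts, with values to 2 decimals. Tools named in the submitters' processing notes, with no role or order, were StringTie 2.2.1, featureCounts 2.0.1, STAR 2.7.10 and fastp 0.23.2, and the build was mm10. For annotation release, strand use and filters the entry is "not given in the sources used here". Groups and replicate numbers came from sample titles, since another label numbers the overexpressed gene consecutively.

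Listed transcripts were summed per gene, and GENCODE M21 (mm10) gave symbols and coordinates for 26033 of 26094 identifiers. The table holds no counts. Low values of genes with 1 single-exon transcript, multiplied by length, piled up near 0.0212 to 0.0228 FPKM kb and near a second step in each library, which would mean 43900000 to 47200000 fragments per library if the first pile is 1 fragment. Only 25.4 to 31.5% of these values lay within 0.1 of a whole multiple, so reads were not recovered, the depth is not known exactly, and no count test or counting interval is given.

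Genes reaching 1 FPKM in 3 or more libraries were tested with limma 3.58.1 in R 4.3.3 (lmFit, eBayes with intensity trend) on log2(FPKM + 1), two-sided, with Benjamini-Hochberg adjustment over 11842 genes and a threshold of 0.05. Fold changes on this scale understate changes of low genes. The fit was tested on simulated data. Single values were compared by exact permutation in scipy 1.17.1. Named genes are the members, Limch1, of each pathway list the 2 highest and 2 lowest fold changes past the threshold, the 5 genes nearest to Dusp6, and Actb, Gapdh and Tbp. The members and lists were chosen with earlier results of these data known. Alternatives were another pseudocount (0.1), 2 other filters, 3 scalings, 2 transcript summaries, no trend, a replicate block and each library left out.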

Additional observations from a re-analysis of the deposited data

How the results depend on the processing

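Over 16 alternatives the calls of Dusp4, Dusp5, Dusp6, Etv4 and Etv5 and the lack of one for Spry1, Spry2, Spred1 and Spred2 did not change, so that 5 members were lower and 0 higher in each. The value of Dusp6 ranged from -1.003 to -0.92, Etv5 from -0.77 to -0.66, Etv4 from -0.68 to -0.59, Dusp5 from -0.69 to -0.59 and Dusp4 from -0.25 to -0.17. The sign turned for Spry1 with the most abundant transcript (-1.21), and for Spred2 with the trimmed mean of M values (-0.0171) and without Vector replicate 3 (-0.0318; among the omissions of 1 library the highest was 0.0666); those values did not pass the test, and the cause was not tested. With the most abundant transcript 999 genes were lower and 997 higher over all genes, and 8 pathway list genes were higher; with protein-coding transcripts only 1534 genes were higher, of 10267 tested. Without 1 library at a time, 1285 to 1553 genes were lower and 1597 to 2225 higher over all genes, and 23 to 27 pathway list genes were lower and 9 to 15 higher, the lowest without Vector replicate 3. The labels do not say whether equal replicate numbers pair the samples. Deviations from the group means correlated at -0.002, 0.046 and 0.059 for numbers 1 to 3, and not every library correlated best with its own number. With 3 libraries per group these small correlations cannot decide it. With the replicate block 1589 genes were lower and 2219 higher, with 5 members lower and 0 higher. Of the genes named by the stated rule, Gab1 alone lost its call there (limma adjusted p = 0.0586). Depth limits Spry4 most, which was below 1 FPKM in every library.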
